A study of Mus musculus with 38 samples.

Results

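Arg1, Ccl2, Aif1, Cd68 and Lyz2 are genes known from macrophages, and they were chosen by the measured activity of their promoters, which was high in the soleus muscle of mice fasted at a high ambient temperature (HiT). A member was a tag cluster whose peak lay within 500 bp, on the same strand, of an annotated 5′ end of one of these genes. The rule found 1 cluster for each gene, so there were 5 member clusters of 10819 in all. Activity was measured by nAnT-iCAGE, a cap analysis without amplification that counts the capped 5′ ends of transcripts, in TPM (the tags of a cluster scaled to a fixed total of tags in each library). One tag stands for 1 capped end, so a TPM level is not divided by transcript length.

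All 38 libraries came from the soleus, a mainly slow postural muscle, of young adult male C57BL/6J mice that carried an implanted temperature sensor, with 1 library per mouse. In run 1, 28 mice fell into 6 groups. Pre mice (n = 4) were fed freely and sampled on day 1. Mid mice (n = 8) were fasted at a cool ambient temperature and sampled on day 2, when fasted mice enter torpor, a reversible fall of metabolism and body temperature. Post mice (n = 4) had their food back and were sampled on day 3. On day 2, HiT mice (n = 4) were fasted at a warm temperature that prevents torpor, Fed mice (n = 4) stayed cool and were not fasted, and Dep mice (n = 4) were fasted and cool but were touched whenever their metabolism began to drop. Run 2 was an independent set of 2 Pre, 5 Mid and 3 Post mice, with no HiT group. The deposited labels are at odds with this for HiT, which the design text describes as given food, and for Fed, whose condition tag reads starvation. The groups were taken from the sample titles and described as in the methods of the study. These were whole muscles, from 1 or both legs, so a lower level from fewer macrophages and one from less RNA per macrophage cannot be told apart.

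Macrophages are phagocytes that live in every tissue, including the connective tissue around muscle fibres, and monocytes from the blood add to them after injury. Arginase 1, the product of Arg1, splits arginine into urea and ornithine and is widely used as a mark of alternatively activated macrophages. Ccl2 encodes a chemokine that draws monocytes through the receptor CCR2, and it is made by many cell types besides macrophages. Aif1 encodes the calcium-binding protein IBA1, Cd68 a glycoprotein of the lysosome membrane, and Lyz2 lysozyme M, a bacteria-digesting enzyme that neutrophils also make.

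The clusters are given in mm10. Arg1 started from chr10:24927396-24927542 on the minus strand, Ccl2 from chr11:82035569-82035647 on the plus strand, Aif1 from chr17:35172547-35172705 on the minus strand, Cd68 from chr11:69666042-69666269 on the minus strand and Lyz2 from chr10:117282153-117282393 on the minus strand. The peak of each cluster lay within 50 bp of the nearest annotated 5′ end, from 4 bp for Ccl2 to 47 bp for Lyz2. All 5 clusters were narrower than the median cluster of 281 bp, at 79 bp for Ccl2, 147 bp for Arg1, 159 bp for Aif1, 228 bp for Cd68 and 241 bp for Lyz2. No RefSeq promoter window was available for Arg1 and Ccl2. The windows of Cd68 and Lyz2 hold the cluster peak and are shown. They run from 250 bases before to 50 bases after the annotated start in GRCm38.p6. The Cd68 window is chr11:69666121-69666420 and the Lyz2 window is chr10:117282223-117282522, both on the minus strand and written 5′ to 3′. Capitals mark matches to the motifs searched.
Cd68: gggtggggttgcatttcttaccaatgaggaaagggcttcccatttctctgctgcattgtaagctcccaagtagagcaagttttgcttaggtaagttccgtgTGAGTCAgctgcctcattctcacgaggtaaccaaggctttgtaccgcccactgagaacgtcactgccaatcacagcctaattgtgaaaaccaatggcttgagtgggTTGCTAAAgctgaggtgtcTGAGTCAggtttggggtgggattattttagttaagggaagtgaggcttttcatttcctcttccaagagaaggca
Lyz2: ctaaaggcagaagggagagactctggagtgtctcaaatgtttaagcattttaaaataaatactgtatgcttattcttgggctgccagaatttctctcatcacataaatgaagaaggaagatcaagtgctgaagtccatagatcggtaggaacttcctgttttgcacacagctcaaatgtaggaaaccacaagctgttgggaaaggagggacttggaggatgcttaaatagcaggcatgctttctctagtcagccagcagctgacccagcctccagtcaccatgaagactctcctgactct
The letters searched, on both strands, were TATAAA for the TATA box, GAGGAAGT for the factor PU.1, TGAGTCA for AP-1, TTGCNNAA for C/EBP and CACGTG for the E-box, together with the NF-kB and STAT motifs. No match overlapped another. The Cd68 window held TGAGTCA at bases 102 to 108 and again at bases 227 to 233, which are 180 and 55 bases upstream of the cluster peak. Between them, TTGCTAAA lay at bases 208 to 215. Of all 32851 RefSeq windows of this length, 5.20% held an AP-1 match and 10.8% a C/EBP match. The Lyz2 window held none of these letters. The Aif1 window lay elsewhere, with the cluster peak 3384 bp downstream of its end, so it is not printed.

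In HiT, all members were high, from 4.21 times the mean of the other 24 libraries of run 1 for Lyz2 to 12.9 times for Ccl2. These values chose the members and are given as a description with no test. Arg1 stood at 17.8, 8.84, 4.2 and 5.03 TPM in HiT 1 to HiT 4, and Ccl2 at 24.2, 21.4, 19.7 and 12.95 TPM. Aif1 stood at 10.2, 6.54, 2.07 and 4.14 TPM. In TPM, HiT 1 held the highest HiT value of each of the 5 genes, but with TMM scaling, which corrects for library composition, HiT 3 was highest for Ccl2 and HiT 2 for Cd68. On both scales HiT 3 was lowest for 4 of the genes and HiT 4 for Ccl2. Cd68 stood at 23.7, 22.9, 10.8 and 11.6 TPM. Lyz2, the most abundant member, stood at 211.3, 121.4, 67.0 and 90.4 TPM. From lowest to highest, the HiT libraries spread by 1.87 times for Ccl2, 2.20 times for Cd68 and 4.92 times for Aif1 in TPM, and by 1.18, 1.85 and 3.69 times with TMM scaling.

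For Ccl2, Cd68 and Lyz2, every HiT library lay above all 24 others of run 1, a separation that 1.43% of the 10776 clusters with a tag in run 1 showed. The highest other library was Pre 1 at 9.23 TPM for Ccl2, Dep 2 at 4.37 TPM for Cd68 and Dep 1 at 49.4 TPM for Lyz2. Arg1 and Aif1 overlapped with other groups. Fed 2 and Fed 3, at 8.13 and 5.19 TPM of Arg1, were above the lowest HiT library, and 3 libraries outside HiT were above the lowest HiT value of Aif1, the highest being Post 4 at 2.79 TPM. With TMM scaling 1 library outside HiT was above the lowest HiT value of each. The fitted log2 difference of HiT minus Mid was 4.56 (SE 1.02) for Arg1, 5.22 (SE 0.54) for Ccl2, 3.75 (SE 0.41) for Aif1, 2.96 (SE 0.22) for Cd68 and 2.32 (SE 0.22) for Lyz2. Against Fed, which differed from HiT in both food and temperature, the differences of Ccl2, Cd68 and Lyz2 were 3.47, 2.56 and 2.00. That of Aif1 was 1.99 (SE 0.48), with the groups overlapping, and that of Arg1 was 1.47 (SE 1.15). From Pre the differences were 7.15 for Arg1, 2.54 for Ccl2, 1.99 for Aif1, 3.19 for Cd68 and 2.17 for Lyz2. For Ccl2 and Aif1 these were smaller than from Mid, their lowest group. The Arg1 differences depended on single libraries, as that from Mid was 6.19 without Mid 7 and that from Fed 2.55 without Fed 2.

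**Figure D1:**
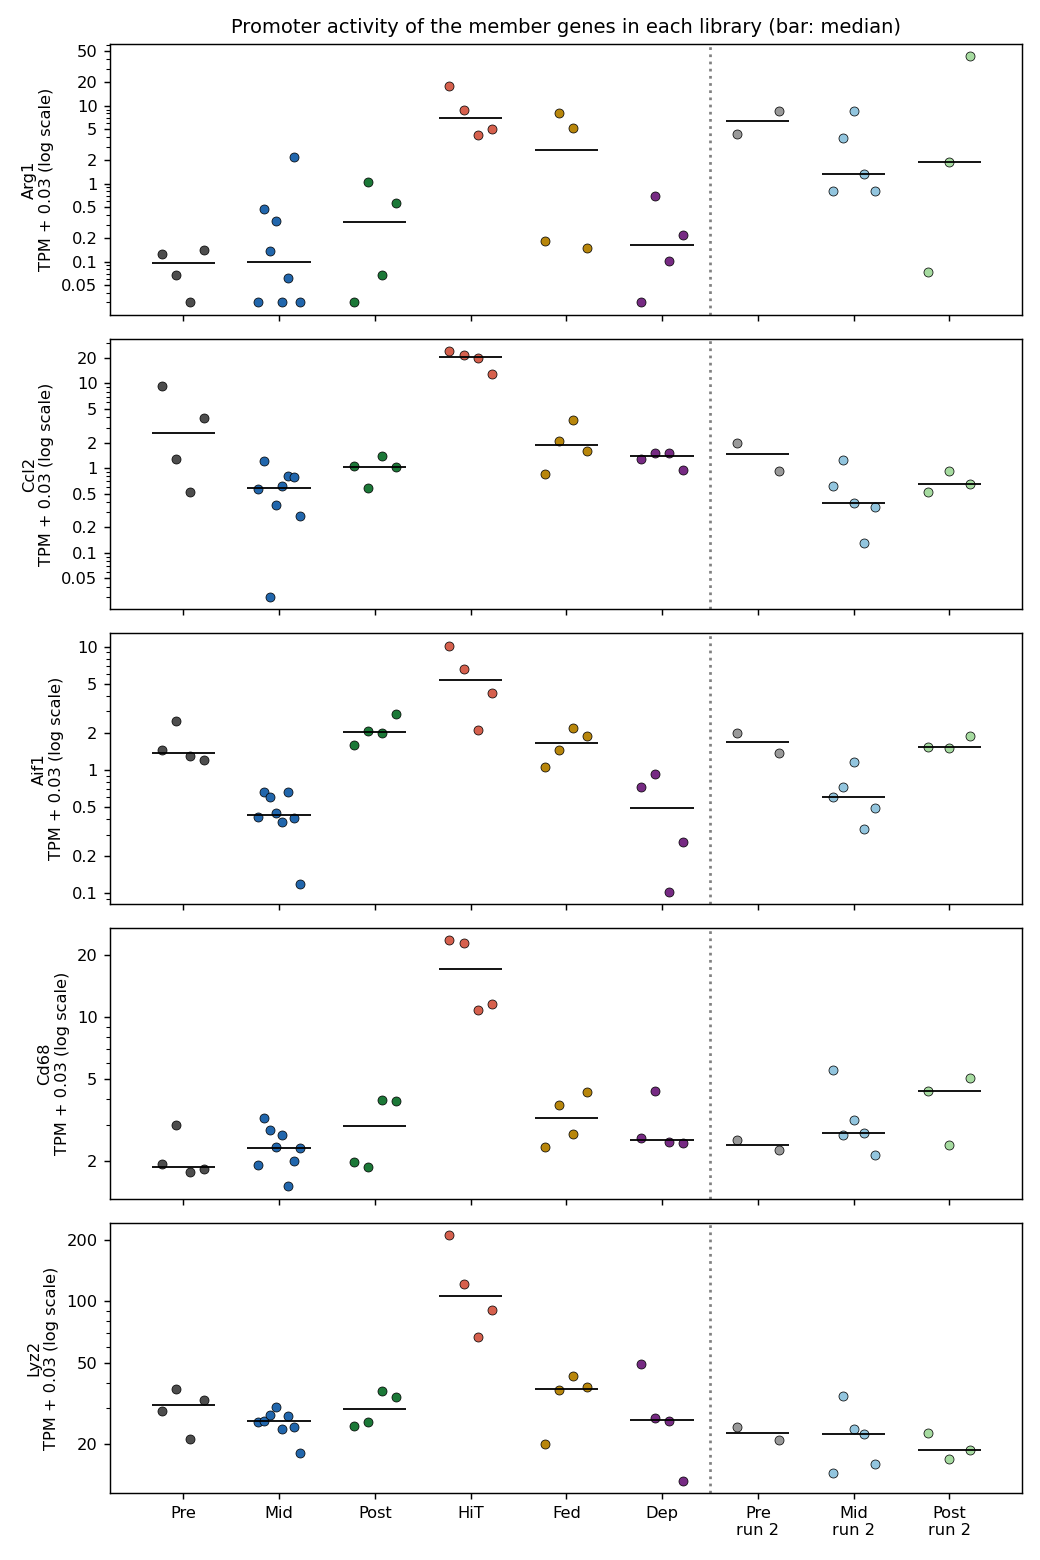
Promoter activity of the 5 member genes in each library, as TPM + 0.03 on a log axis, for the 6 groups of run 1 and, right of the dotted line, the 3 groups of run 2. Each point is a library and each bar a group median. The HiT points stand clear of the other run 1 groups for Ccl2, Cd68 and Lyz2, and Aif1 dips in Mid and Dep.

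The order of the groups below HiT differed from gene to gene. By mean level, Fed came next for Arg1, Cd68 and Lyz2, Pre for Ccl2 and Post for Aif1. Pre was the lowest group for Arg1 and Cd68, and Mid for Ccl2, Aif1 and Lyz2. Among neighbours in these orders, the groups below HiT overlapped in every case but 1, since the lowest Pre library of Aif1 (1.17 TPM) lay above the highest Dep library (0.906 TPM).

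Aif1 was the member that fell from Pre to Mid and rose again in Post. It was also low in Dep, the fasted and cool mice that were touched, with a mean of 0.477 TPM beside 0.432 TPM in Mid. In Pre 1 to Pre 4 it stood at 1.42, 2.47, 1.28 and 1.17 TPM, and in the 8 Mid libraries it ran from 0.0899 through a median of 0.399 to 0.640 TPM. In Post 1 to Post 4 it was back at 1.56, 2.03, 1.95 and 2.79 TPM. No Mid library reached any Pre or Post library. Aif1 fell from Pre to Mid by 1.76 on the log2 scale (SE 0.42, edgeR quasi-likelihood adjusted p = 0.0022) and rose from Mid to Post by 2.22 (SE 0.41, adjusted p = 0.000166). Both calls held when each library was left out in turn. Across all clusters, 30.2% were called in Mid minus Pre and 35.0% in Post minus Mid, so such a call was common.

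The mice of run 2, which played no part in the choice of the members, again had less Aif1 in Mid. Pre 5 and Pre 6 stood at 1.96 and 1.34 TPM, Mid 9 to Mid 13 at 0.579, 0.692, 1.14, 0.302 and 0.460 TPM, and Post 5 to Post 7 at 1.52, 1.48 and 1.87 TPM. The Mid libraries lay below all others of that run. The difference of Mid minus Pre was -1.32 (SE 0.44), with an adjusted p of 0.0855 from edgeR that missed the threshold. In Post minus Mid, where 16.4% of clusters were called, Aif1 rose by 1.26 (SE 0.39, edgeR adjusted p = 0.0485), a call that was lost with the sequencing lane in the fit (adjusted p = 0.221) or without any of 7 of the 8 libraries compared. Lane and group cannot be fully told apart, since all Post and 1 Mid library shared a lane. The change of Aif1 did not differ detectably between runs, with a difference of -0.44 (SE 0.75) in Mid minus Pre and 0.95 (SE 0.69) in Post minus Mid, and adjusted p of 0.998 and 0.802 in a fit of both runs by edgeR.

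Ccl2 also fell from Pre to Mid, and its difference of Post minus Mid did not pass the test. It stood at 9.23, 1.26, 0.490 and 3.91 TPM in Pre 1 to Pre 4 and ran from 0 through a median of 0.559 to 1.20 TPM in Mid. In Post 1 to Post 4 it was 1.03, 0.554, 1.38 and 0.988 TPM. Pre spread widely and Pre 3 lay among the Mid libraries. The Mid library at 0 (Mid 3) allows a level of up to 0.108 TPM, the worth of 3 tags. The difference of Mid minus Pre was -2.68 (SE 0.54, edgeR adjusted p = 0.000461), and -1.63 without Pre 1, still called. In Post minus Mid it was 0.82 (SE 0.59, adjusted p = 0.297), and in Post minus Pre -1.86 (SE 0.64, adjusted p = 0.159; -0.81 without Pre 1), where 0 of the 5 members and 1.85% of all clusters were called. In run 2, Ccl2 stood at 1.96 and 0.895 TPM in Pre, from 0.101 to 1.21 TPM in Mid and from 0.492 to 0.887 TPM in Post. Its Mid minus Pre difference of -1.39 (SE 0.67, edgeR adjusted p = 0.233) did not pass. None of the 5 members passed there, and 9.74% of all clusters did.

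Cd68 and Lyz2, the lysosome protein and the lysozyme, showed no call in any of the 9 contrasts without HiT. Cd68 stood at 1.90, 2.97, 1.73 and 1.81 TPM in Pre, from 1.48 through 2.29 to 3.20 TPM in Mid, and at 1.96, 1.85, 3.94 and 3.89 TPM in Post. Lyz2 stood at 28.9, 37.4, 21.3 and 33.1 TPM in Pre, from 18.1 through 25.8 to 30.3 TPM in Mid, and at 24.7, 25.6, 36.4 and 33.9 TPM in Post. These groups overlapped for both genes. Their fitted Mid minus Pre differences were 0.23 (SE 0.24) and -0.15 (SE 0.23), with edgeR adjusted p of 0.501 and 0.673. Lyz2 is read from at least 150 tags a library and Cd68 from at least 24, and their SEs were the smallest of the 5. In run 2 the same differences were 0.49 (SE 0.41) and 0.02 (SE 0.26).

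**Figure D2:**
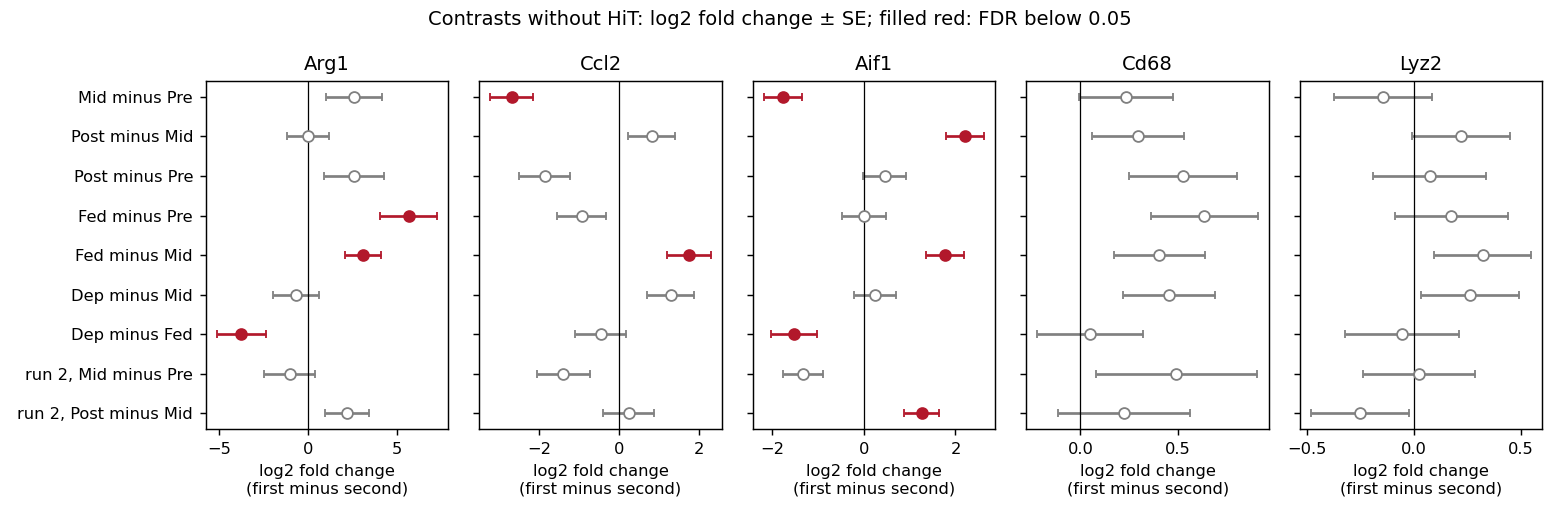
Fitted log2 fold changes (points) with SE (bars) of the 5 members in the 7 contrasts of run 1 and 2 of run 2 that leave out HiT, with a separate horizontal scale for each gene. Filled red points passed an adjusted p of 0.05. Aif1 and Ccl2 fall in Mid minus Pre, Arg1 stands out in contrasts with Fed, and Cd68 and Lyz2 have no filled point.

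Arg1 varied most between mice of one group, and a few libraries held most of its tags. In Pre 1 to Pre 4 it stood at 0.0965, 0.0381, 0 and 0.113 TPM, which is 7 tags in all. In Mid it was at 0 in 3 of 8 libraries, with a median of 0.0696 and a highest value of 2.17 TPM in Mid 7. In Post it stood at 0, 1.04, 0.0383 and 0.545 TPM, and in Dep at 0, 0.659, 0.0731 and 0.193 TPM. A library at 0 allows up to 0.0899 to 0.116 TPM, so levels below that cannot be told apart. The Mid minus Pre difference of 2.59 (SE 1.56, edgeR adjusted p = 0.219) did not pass and was 0.96 without Mid 7.

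In Fed, Arg1 split the group. Fed 1 and Fed 4 held 0.154 and 0.121 TPM, near the Pre level, while Fed 2 and Fed 3 held 8.13 and 5.19 TPM, inside the HiT range. No other member split in this way. Ccl2 stood at 0.823, 2.09, 3.67 and 1.57 TPM in Fed 1 to Fed 4, also highest in Fed 3 and Fed 2 but below every HiT library. Aif1 stood at 1.03, 1.42, 2.15 and 1.86 TPM, with Fed 3 above the lowest HiT library (2.07 TPM). Cd68 stood at 2.32, 3.73, 2.68 and 4.32 TPM and Lyz2 at 20.1, 36.8, 43.3 and 38.0 TPM in Fed 1 to Fed 4. The macrophage list below summed to 118.7, 161.4, 169.1 and 170.7 TPM there, so Fed 4 matched Fed 3 in the list but not in Arg1. Fed 2 and Fed 3 also held the most red blood cell RNA of the group, 12640 and 5778 TPM of the list against 2718 and 4154 TPM, and its part in the Arg1 level was not tested. Arg1 passed in Fed minus Pre with 5.68 (SE 1.61, edgeR adjusted p = 0.0275), where it was the only member and 11.2% of all clusters were called, but not without Fed 2 (4.60) or without any 1 of the 4 Pre libraries. It also passed in Fed minus Mid with 3.09 (SE 1.01, adjusted p = 0.0194), with 2.01 and no call without Fed 2.

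Fed minus Mid compares fed with fasted mice at the cool temperature, and 3 of the 5 members passed there, all higher in Fed, against 18.6% of all clusters called higher and 35.2% called in either direction. Besides Arg1, Aif1 rose by 1.76 (SE 0.42, edgeR adjusted p = 0.00185), from a Mid maximum of 0.640 TPM to Fed values of 1.03, 1.42, 2.15 and 1.86 TPM, with no overlap. Ccl2 was higher by 1.74 (SE 0.55, adjusted p = 0.016), and lost its call without Fed 3 (1.4). This contrast and those with Pre and Post share the Mid libraries.

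In Dep, the touched mice, Aif1 was low. It stood at 0.698, 0.906, 0.0731 and 0.231 TPM in Dep 1 to Dep 4, below every Fed library. In Dep minus Mid none of the 5 members passed, where 2.03% of all clusters did, and the Aif1 difference was 0.25 (SE 0.46, edgeR adjusted p = 0.802). In Dep minus Fed 2 members passed, both lower in Dep, where 38.6% of clusters were called. Aif1 fell by 1.52 (SE 0.51, adjusted p = 0.021) and Arg1 by 3.73 (SE 1.38, adjusted p = 0.035). Without Dep 3 or without Dep 4 neither passed (0 members called), and the Arg1 call was also lost without Fed 2 (-2.65), Fed 3 or Dep 1. Ccl2 held at 1.26, 1.48, 1.46 and 0.925 TPM in Dep and did not pass against Mid (1.29, SE 0.58, adjusted p = 0.222).

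Lyz2 in Dep 1 was the highest value outside HiT, 49.4 TPM against 26.9, 25.8 and 13.2 TPM in Dep 2 to Dep 4. The neutrophil list (S100a8, S100a9, Camp, Ngp and Lcn2 had a cluster, 5 of 12 genes) summed to 135.1 TPM in that library and to between 2.93 and 3.98 TPM in the other Dep libraries. Cd68 and Aif1 in Dep 1, at 2.56 and 0.698 TPM, lay below Dep 2 and above Dep 3 and Dep 4. The macrophage list described below summed to 153.4 TPM in Dep 1 and to 115.4, 142.7 and 83.1 TPM in Dep 2 to Dep 4. In HiT the neutrophil list summed to between 3.30 and 11.8 TPM, S100a8 averaged 0.249 ± 0.105 TPM (SD, n = 4), and Lyz2 was higher than in Dep 1 in every library. Without Dep 1 the Lyz2 difference of Dep minus Mid moved from 0.26 to -0.15, and neither passed. The part of neutrophils in the Lyz2 levels of Dep and HiT was not tested.

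Arg1 in run 2 was high in most mice. Pre 5 and Pre 6 stood at 4.27 and 8.497 TPM, Mid 9 to Mid 13 at 0.772, 3.81, 8.63, 1.31 and 0.782 TPM, and Post 5 to Post 7 at 0.0447, 1.87 and 43.4 TPM. Post 7 was the highest Arg1 value of all 38 libraries, above HiT 1. In Post 7, Lyz2 stood at 18.7 and Ccl2 at 0.622 TPM, between the other Post libraries of run 2, while Aif1 at 1.87 and Cd68 at 5.05 TPM were the highest of these 3, and the macrophage list summed to 120.6 TPM. In the same 3 groups, 9 of 10 libraries of run 2 and 3 of 16 of run 1 held over 0.5 TPM of Arg1. The runs also differed in genes far from macrophages, as the strongest promoter of Tnnt1, slow troponin T, averaged 1010 TPM in Pre of run 1 and 4541 TPM in Pre of run 2, so levels were not compared across runs by a test. Within run 2 the Arg1 difference of Post minus Mid was 2.21 (SE 1.22, edgeR adjusted p = 0.26) and -1.94 without Post 7.

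Whether the members move together from mouse to mouse was asked within groups, after subtracting each group's mean of log2(CPM + 0.5), in the 24 libraries of run 1 without HiT. Of 10 pairs, 9 correlations were positive, from -0.013 for Ccl2 with Cd68 to 0.615 for Aif1 with Lyz2. For Aif1 with Lyz2, Pearson's r of 0.615 had a permutation p of 0.0188 (adjusted over the 10 pairs, 0.188) and Spearman's rho of 0.698 had p = 0.00111 (adjusted, 0.0111), and r was 0.693 without Dep 2 and Dep 3, the libraries farthest from the median of Aif1. No other pair passed by either measure. Arg1 had an r of 0.027 with Cd68 and 0.127 with Lyz2. In the 10 libraries of run 2 no pair passed, and Aif1 with Lyz2 had r = 0.201 (permutation p = 0.731, adjusted 0.997) and rho = 0.285 (p = 0.487, adjusted 1.0). The points of a group share its handling and each run its sequencing.

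**Figure D3:**
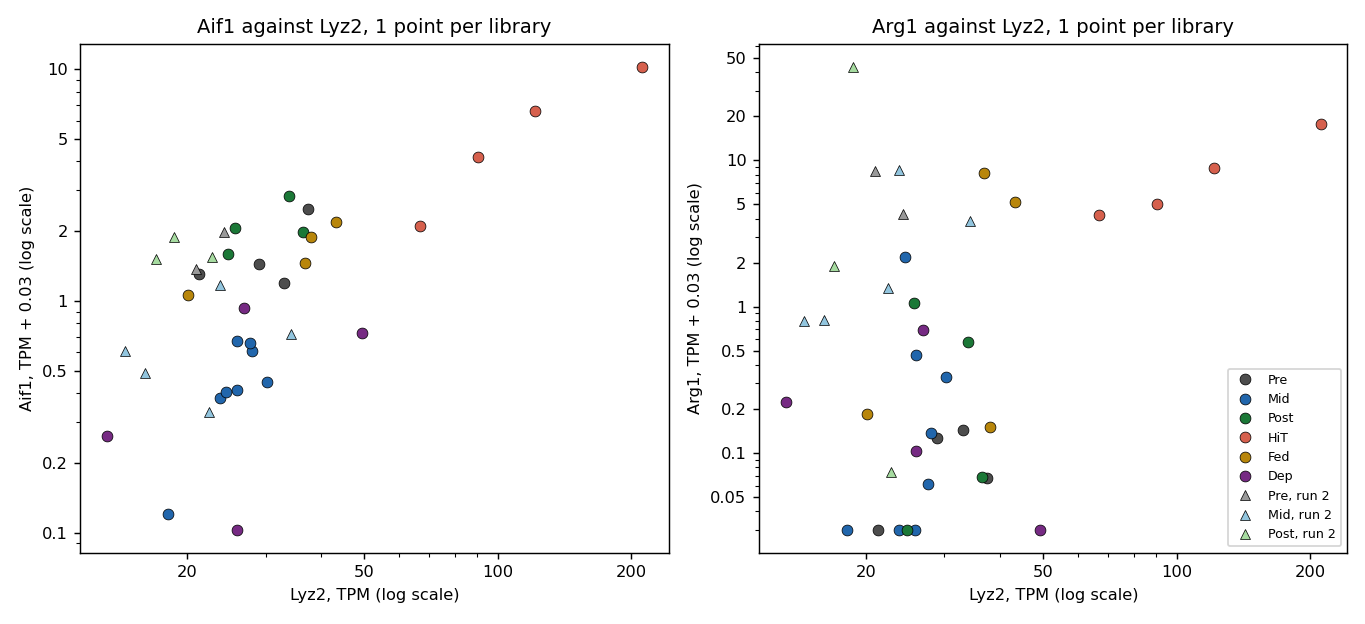
Aif1 (left) and Arg1 (right) against Lyz2, 1 point per library, in TPM on log axes with 0.03 added to Aif1 and Arg1. Circles are run 1 and triangles run 2. On this scale Aif1 and Lyz2 run from 10.2 and 211.3 TPM in HiT 1 down to 2.07 and 67.0 TPM in HiT 3, while Arg1 spans from 0 to 43.4 TPM among libraries with less than 50 TPM of Lyz2.

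For each member, the promoters most like it over the 28 libraries of run 1 were sought among 9436 clusters of other genes, by Pearson's r of log2(CPM + 0.5), as a description in which HiT carries much of the likeness. Lyz2 was most like Tyrobp (r = 0.978), Wfdc17, Fcer1g, Laptm5 and Alox5ap, of which Tyrobp and Fcer1g encode signalling adaptors of myeloid receptors. Their r without HiT was between 0.825 and 0.871, and in run 2 between 0.389 and 0.757. Aif1 was most like Pycard (0.946), the inflammasome adaptor, then Ptpn18, Lrrc17, Unc93b1, which carries Toll-like receptors to endosomes, and Lsp1, a leukocyte actin-binding protein. Without HiT their r was between 0.826 and 0.888, with Lsp1 at 0.84. In run 2 it was between 0.473 for Pycard and 0.893 for Lsp1. The other members kept less of their likeness without HiT. Cd68 was most like Tubb5 (0.949, then 0.588 without HiT), Sbno2, Mmp19, Rnh1 and Ctss (0.921, then 0.325). Arg1 was most like Fxyd5 (0.841, then 0.533), Il13ra1, a chain of the interleukin-13 receptor, Sec61a1, Timp1 and Skap2. Ccl2 was most like Mtpn (0.920, then 0.742), Tnc, the injury matrix protein tenascin C, Anxa2, Cks1b and Timp1. In run 2 the r of these promoters ran from -0.169 to 0.342 for Cd68 and from 0.239 to 0.588 for Arg1. For Ccl2 it ran from -0.481 to 0.569, with Mtpn at -0.065.

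Other macrophage genes were high in HiT as well, in the same libraries that chose the members. Their list was chosen with earlier results of these data known, so its calls describe these libraries and are no independent test. Of 30 marker genes other than the members, 18 had a cluster, with 21 promoters, and 20 of the 21 were higher in HiT than in Mid by edgeR, where 21.8% of all clusters were higher and 19.2% lower. Their median log2 difference was 2.17, against -0.02 over all clusters. The 2 largest were Tyrobp, at 21.2 ± 11.04 TPM in HiT and 3.06 ± 0.554 TPM in Mid (SD, n = 4 and 8, log2 difference 2.83, edgeR adjusted p = 1.12e-09), and Lsp1 (2.81). Csf1r, the receptor for the growth factor macrophages need, averaged 39.3 ± 19.97 TPM in HiT and 14.6 ± 2.15 TPM in Mid, and the complement gene C1qa 21.7 ± 9.95 and 4.94 ± 1.12 TPM. Adgre1, which encodes the defining antigen F4/80, had no cluster, and neither did Cd14, Itgam or Cx3cr1. The same list gave 20 higher of 21 in HiT minus Pre (18.5% of all clusters) and 19 of 21 in HiT minus Fed (23.3%), contrasts that share the HiT libraries.

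Library by library, the macrophage list summed to 622.2, 420.6, 210.9 and 272.7 TPM in HiT 1 to HiT 4 and to between 83.1 and 170.7 TPM in the other 24 libraries of run 1. The fall of Aif1 in Mid was not shared by this list: 2 of its promoters were higher and 1 lower (0 without Pre 2 and 2 without Mid 6) in Mid minus Pre, with a median of -0.20, and its sums overlapped, from 104.6 to 169.3 TPM in Pre and from 106.7 to 143.3 TPM in Mid. Dep minus Mid called none of the 21 promoters, like none of the members.

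The genes of antigen presentation were high in HiT to a like degree. All 6 promoters with a cluster of the dendritic cell and MHC class II list were higher in HiT than in Mid, with a median of 2.30, and H2-Ab1 averaged 93.3 ± 41.2 TPM in HiT and 15.4 ± 4.06 TPM in Mid. Flt3 and Itgax, the dendritic cell genes of that list, had no cluster. Of the lysosome list, to which Cd68 belongs by function, 13 of 24 promoters were higher and 2 lower, with a median of 0.35. Ctss, a cathepsin of antigen-presenting cells, was higher by 2.64 and Lgmn by 1.32, whereas Ctsl, the cathepsin found in most cells, was lower by 0.46 and Lamp1 by 0.30. Without TMM scaling the count of higher lysosome promoters was 7.

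Among the chemokines and their receptors, the kin of Ccl2, 8 of 30 genes had a cluster. In HiT minus Mid 5 were higher and 1 lower, with a median of 1.18. Ccl6 averaged 88.3 ± 37.1 TPM in HiT and 12.99 ± 2.46 TPM in Mid (2.82, edgeR adjusted p = 6.57e-10), and Ccl9 34.3 ± 15.3 and 5.82 ± 1.41 TPM. Ccl11, which draws eosinophils, was lower (-0.47, adjusted p = 0.00847). Ccr2, the receptor of Ccl2, and its relatives Ccl7, Ccl8 and Ccl12 had no cluster.

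The genes around Arg1 moved in both directions. Of the arginine and polyamine list, 5 of 15 promoters were higher (3 without HiT 4) and 1 lower in HiT than in Mid, with a median of -0.05, beside -0.02 over all clusters. Aldh18a1, an enzyme of proline and ornithine synthesis, was higher by 1.58 and Gatm, which starts creatine synthesis from arginine, by 1.07, while Nos1, the neuronal nitric oxide synthase, was lower by 0.60. Arg2 had no cluster. Of the alternative activation list, 6 of 7 promoters were higher and none lower, with a median of 0.60, led by Egr2 (1.48) and Igf1 (1.23). Against Fed only 2 of these 7 were higher, and Igf1 averaged 12.5 ± 4.44 TPM in HiT beside a mean of 19.1 TPM in Fed. Retnla aside, the classic genes of that state (Chil3, Clec10a, Mgl2) had no cluster. Of the inflammatory activation list, Socs3 (2.53) and Il1r1 (0.63) were higher and Nfkbia (-0.60) lower of 5 promoters, and Nos2, Tnf, Il1b and Il6 had no cluster.

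**Figure D4:**
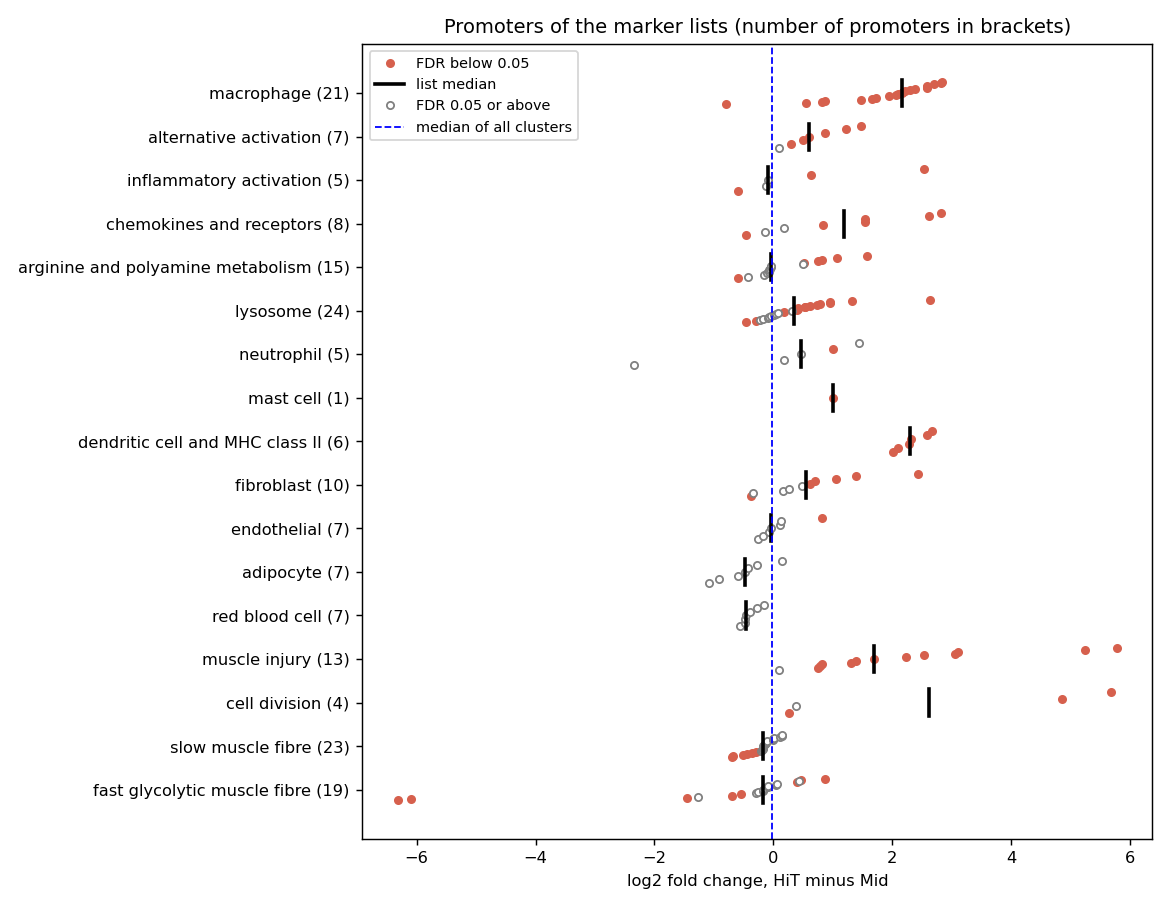
Log2 fold change of HiT minus Mid for each promoter of 17 marker lists, none of them a member. Filled points passed an adjusted p of 0.05, black bars are list medians and the dashed line is the median of all clusters at -0.02. The macrophage, MHC class II, muscle injury and cell division lists lie to the right of the other lists.

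Markers of other cell types were read beside these results. None of 12 lymphocyte genes had a cluster. In HiT minus Mid, 1 of 5 neutrophil promoters (Lcn2, 1.00) and the single mast cell promoter (Cma1, 1.00) were higher, and none of 7 adipocyte and 7 red blood cell promoters passed. Of the fibroblast list 5 of 10 were higher and 1 lower, led by Col3a1 (2.44) and Fbn1 (1.39), and of the endothelial list 1 of 7 (Cldn5, 0.82). The muscle injury list had 12 of 13 higher, led by Mybph at 88.2 ± 21.3 TPM in HiT and 1.74 ± 2.08 TPM in Mid and by Tnc at 105.4 ± 46.6 and 2.89 ± 0.761 TPM, and 3 of 4 promoters of the cell division list were higher, led by Birc5 (5.68) and Ccna2 (4.86). Of the slow fibre list 6 of 23 promoters were lower and none higher. Of the fast fibre list 3 of 19 were higher, all of Mylpf, a fast myosin light chain (0.86, 0.46 and 0.39), and 5 lower, led by both promoters of Myh4, fast myosin (-6.09 and -6.31), which went from 309.4 ± 335.4 TPM in Mid to 4.27 ± 2.28 TPM in HiT at the stronger. The part of these other cells and of fibre makeup in the member levels was not tested.

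Depth in clusters ran from 18257657 to 39176649 tags in run 1 and from 9359994 to 20914855 in run 2. The slow fibre genes Myh7 and Tnnt1 were read in every group, with strongest promoters at 840.5 ± 153.1 and 780.5 ± 220.5 TPM in HiT and 1160 ± 208.5 and 924.8 ± 207.5 TPM in Mid.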

How the data were processed

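Soleus RNA was profiled by nAnT-iCAGE in 38 libraries. Trimming was followed by mapping with bwa and hisat2 (mm10) and by clustering of 5′ ends in PromoterPipeline, all by the authors; versions are not given in the sources used here. The deposited table holds tag counts per cluster, which were whole numbers, and TPM, which the authors scaled to a fixed total of tags in each library. Of 0 columns the sample was unknown. Clusters held 93.91 to 95.64% of the library in run 1 and 93.08 to 94.34% in run 2. Clusters were given to genes by annotated 5′ ends (GENCODE vM21) within 500 bp, and within 100 bp the same 5 were found.

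Counts were fitted with edgeR 4.0.16 (R 4.3.3) with TMM factors and a quasi-likelihood F test, with group as the only term, separately for the 28 libraries of run 1 (10776 clusters with a tag) and the 10 of run 2 (10816), with no filter on low counts and Benjamini-Hochberg adjustment over all of them. A call is an adjusted p below 0.05, and log2 differences are fitted values. TMM factors of the HiT libraries ran from 0.679 to 1.18. In a fit of both runs, made after the data were seen, 0 of 10819 clusters differed between runs in either contrast, and no member had an unadjusted p below 0.05. The F tests set each group difference against the spread between mice within groups, estimated over all groups of a run. SEs were derived from the log2 difference and its F value, so they hold that spread. Correlations used 100000 permutations within groups (scipy 1.17.1). Floors cover counting error only. On simulated counts for Mid minus Pre over 10776 clusters, 98.0% of 200 changed clusters were recovered with 14 false calls. The changed clusters had a mean of at least 1 CPM and a log2 change of 1, and all clusters shared a dispersion of 0.0377. The share recovered therefore does not describe members with few tags or a wider spread between mice, such as Arg1. No pair of libraries within a group agreed within counting noise.

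The members and lists were chosen with earlier results of these data known. Named are the 5 members, the 2 called promoters with the largest rise and fall of each list in HiT minus Mid, the 5 promoters most like each member, and a few defining markers. Genes said to lack a cluster were named after the values were seen. The values of 1 promoter that the rule names are not reported here.

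Alternatives were DESeq2 1.42.0, edgeR's likelihood ratio test, library size without TMM, upper-quartile scaling, filterByExpr, only the compared groups, a replicate block, a lane term in run 2, other pseudocounts or TPM for correlations, and each library left out. TMM-scaled levels in HiT were added after the data were seen.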

Additional observations from a re-analysis of the deposited data

Results flagged for a closer look

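In 35 groups of 4 to 8 libraries, 3 held a member value whose gap to its nearest neighbour was large for the range of the group (Dixon's criterion), and chance alone flags about 1 in 20 groups. Arg1 stood at 2.17 TPM in Mid 7, with the next Mid library at 0.440 TPM. Cd68 stood at 2.97 TPM in Pre 2, with the next at 1.90 TPM, and at 4.37 TPM in Dep 2, with the next at 2.56 TPM.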

How the results depend on the processing

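The calls of Aif1 and Ccl2 in Mid minus Pre and of Aif1 in Post minus Mid and Fed minus Mid held under every alternative run, leaving out each library included. Arg1 calls did not. Without TMM or with only the compared groups, 0 members were called in Fed minus Pre (Arg1 adjusted p = 0.102 and 0.0526). In Dep minus Fed 1 member was called with DESeq2 and 1 with the likelihood ratio test (Arg1 0.052 and 0.0565), and 0 with only the compared groups (Arg1 0.0731, Aif1 0.0841). Arg1 in Fed minus Mid had 0.058 with DESeq2 and 0.0735 with only the compared groups. With the lane term 0 members were called in run 2 Post minus Mid. Macrophage promoters higher in Fed minus Mid were 7 with upper-quartile scaling and 2 with the replicate block, beside 4, and lysosome promoters higher in HiT minus Mid were 7 without TMM, beside 13. The cause was not tested.

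Small differences changed sign. Aif1 in Fed minus Pre was -0.00427 with DESeq2, -0.0194 with upper-quartile scaling and -0.00225 with only the compared groups. Without TMM, Cd68 in Dep minus Fed was -0.17, Lyz2 in Post minus Pre -0.00337 and Lyz2 in run 2 Mid minus Pre -0.0162. With the lane term Lyz2 in run 2 Post minus Mid was 0.12. On TPM, r of Ccl2 with Cd68 was 0.034 in run 1 and 0.010 in run 2, and with a pseudocount of 0.1 it was 0.032 in run 2, where Arg1 with Cd68 was -0.013.

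Over 60 pairs of libraries that share a number, the correlation of deviations ran from -0.600 to 0.453 with a median of -0.0795, so the numbers do not pair the mice. With the replicate block Arg1 in Dep minus Mid was 0.10, Aif1 in Dep minus Mid -0.0259, Arg1 in HiT minus Mid 6.00, and Ccl2 in Fed minus Mid had an adjusted p of 0.0637.

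With each library left out in turn, the members called ranged from 0 to 1 in Fed minus Pre, from 0 to 2 in Dep minus Fed, and from 0 to 1 in both run 2 contrasts, where Aif1 passed in Mid minus Pre without Mid 11. Macrophage promoters ranged from 2 to 7 higher in Fed minus Mid and from 0 to 2 lower in Mid minus Pre, and higher arginine and polyamine promoters in HiT minus Mid from 3 (without HiT 4) to 5. Arg1 ranged from -1.04 to 1.65 in Post minus Mid, from -1.98 to 0.98 in Dep minus Mid and from -1.94 to 3.02 in run 2 Post minus Mid. Ccl2 ranged from -1.29 to 0.11 in Fed minus Pre and from -0.00736 to 0.84 in run 2 Post minus Mid. Aif1 ranged from -0.125 to 0.24 in Fed minus Pre and from -0.22 to 0.63 in Dep minus Mid, and Cd68 from -0.19 to 0.18 in Dep minus Fed. Lyz2 ranged from -0.0414 to 0.15 in Post minus Pre, from -0.15 to 0.46 in Dep minus Mid, from -0.47 to 0.17 in Dep minus Fed and from -0.17 to 0.16 in run 2 Mid minus Pre.

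Counts over all clusters moved by over 1.5 times without TMM, to 1458 from 3253 in Mid minus Pre, 1630 from 3771 in Post minus Mid, 21 from 199 in Post minus Pre, 6 from 1207 in Fed minus Pre, 2181 from 3797 in Fed minus Mid, 9 from 219 in Dep minus Mid, 1974 from 3604 in HiT minus Pre, 2323 from 4422 in HiT minus Mid, 1422 from 3142 in HiT minus Post, 2961 from 4657 in HiT minus Fed and 1108 from 2861 in HiT minus Dep. Dep minus Mid also gave 479 with DESeq2, 343 with the likelihood ratio test, 2 with only the compared groups and 407 with the block, Post minus Pre 310 with DESeq2, Fed minus Pre 631 with only the compared groups and run 2 Post minus Mid 485, from 1772, with the lane term. With 1 library left out, Fed minus Pre fell to 192 (Fed 2), Dep minus Mid to 46 (Dep 2), Post minus Pre to 67 (Post 1) and run 2 Mid minus Pre to 260 (Pre 6). Without TMM the median of all clusters moved to 0.12 in Fed minus Mid, -0.23 in Dep minus Fed, -0.13 in HiT minus Pre, -0.11 in HiT minus Mid and -0.21 in HiT minus Fed. The split of higher and lower clusters in HiT minus Mid then went from 2352 and 2070 to 1010 and 1313, and with upper-quartile scaling that of Mid minus Pre went from 1659 and 1594 to 1282 and 2308. Levels under 3 tags, which 10 of the 24 libraries of run 1 outside HiT had for Arg1, cannot be told from 0.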
